A study of Mus musculus with 32 samples.

Results

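Expression was compared between 2 preparations of mouse skin epithelium. The first was interfollicular epidermis, the sheet of keratinocytes between the hairs, and the other consisted of hair follicles in mixed phases of the hair cycle. The epidermis was sorted as single cells that carried both Itga6 and Sca1, and gave 3 libraries. The follicles were a mixture of growing (anagen) and resting (telogen) ones, and also gave 3 libraries. These 6 libraries were chosen by the names and titles of their deposited files, out of 32 libraries in the series, most of which were organoids grown from skin. A further tissue preparation, 3 libraries of anagen follicles, is set beside them where it helps to read a value.

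All 9 tissue libraries came from skin of Bl/6 mice, were not cultured and were not passaged, per the labels. The labels name no allele, no treatment, no age and no sex, and they do not say how many animals a library pools or whether replicates came from separate animals. The spread behind each p-value may therefore be technical. It was estimated in a fit that also held libraries of passaged organoids, grown with Forskolin and Fgf1. The epidermis libraries are labelled as sorted cells and the follicle libraries as tissue, so the gate and the tissue differ together. RNA was measured by CEL-seq2, which counts the 3′ ends of polyadenylated transcripts, so levels are compared between libraries and not between genes. In such bulk samples, fewer cells of a type and less RNA per cell cannot be told apart.

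Interfollicular epidermis renews itself from a basal layer that sits on the basement membrane. Basal cells hold on to it through hemidesmosomes, built from the integrin pair of Itga6 and Itgb4 with the collagen Col17a1 and the linker protein dystonin, and they leave it when they differentiate towards the cornified surface. The follicle holds an outer root sheath that continues the basal layer, a bulge of stem cells, sebaceous gland, and, in anagen, a matrix that makes the inner root sheath and the hair shaft. Sca1 (gene Ly6a) and Itga6 are used together to gate basal keratinocytes outside the bulge.

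The epidermis libraries held 469839 to 739531 counts and the mixed follicle libraries 1385192 to 3351435, so the epidermis limits the precision. Between 11028 and 11751 genes were detected in an epidermis library and 12434 to 15649 in a mixed follicle library. Ribosomal protein genes took 22.34 to 25.7% of the counts in epidermis and 9.316 to 16.9% in mixed follicles, and the part of this share in the gene results was not tested. Mixed follicle replicate 3 stood apart, because its 10 highest genes took 30.65% of its counts, against 11.69 and 14.54% in the other mixed libraries. Replicates correlated at 0.909 to 0.925 (Spearman, across genes) in epidermis and 0.883 to 0.939 in mixed follicles. The 3 mixed follicle libraries came from 1 source table (a set of files with the same gene list) and each epidermis library from its own, so tissue and source table cannot be told apart.

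The cells' labels were read first against the genes used for the sort and against 3 markers of the pair. The gene Itga6 was at 228, 319.1 and 346.7 CPM (counts scaled to a common library total by TMM) in epidermis, and at 8.141, 23.15 and 24.67 in mixed follicles. Ly6a was at 245.3, 164.8 and 256.5 CPM in epidermis and at 150.6, 299 and 331.3 in mixed follicles, and the groups overlapped (log2 fold change −0.23, SE 0.65, adjusted p = 0.826). Both genes were selected by the sort and are no finding between these groups. Ly6a was only 1.81 to 8.87 CPM in anagen follicles, so the mixed preparation carried this transcript at the level of the Sca1-sorted cells.

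Col17a1 (chromosome 19, 47646344 to 47692094, GRCm38) was at 2414, 3092 and 1708 CPM in epidermis and 158, 220 and 289 in mixed follicles (log2 fold change 3.44, SE 0.64, adjusted p = 0.000714). Every epidermis library was above every mixed library. Defb6, a beta-defensin of the upper follicle and sebaceous duct region (chromosome 8, 19225478 to 19228209), was at 120, 218 and 388 CPM in epidermis and 550, 1171 and 1376 in mixed follicles. The groups did not overlap, but the call was narrow (log2 fold change −2.09, SE 0.77, adjusted p = 0.0484) and was lost in all 6 fits that left out 1 library. Krt79, a keratin of the infundibulum and sebaceous duct (chromosome 15, 101929332 to 101940324), was at 67.6, 47.5 and 113 CPM against 110, 193 and 236, with overlapping ranges (−1.24, SE 0.50, adjusted p = 0.0674). Krt79 passed as lower in 4 of 15 alternative fits. Anagen follicles held 18.8 to 34.3 CPM of Defb6 and 2.41 to 10.9 of Krt79. Both transcripts were thus present in the cells sorted as interfollicular epidermis, above their level in anagen follicles and below or near that in the mixture.

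At an adjusted p of 0.05 (quasi-likelihood test of edgeR, Benjamini-Hochberg), 3289 of 10843 tested genes differed between sorted epidermis and mixed follicles, or 30.3%. Of these 1286 (11.9% of genes tested) were higher in epidermis and 2003 (18.5%) lower. These shares are the background against which each gene list below is read. The median log2 fold change of all tested genes was −0.08. With upper quartile scaling it was 0.19, and the share of called genes that were higher went from 39.1% to 52.6%, so small differences depend on the scaling. Of the genes lower, 181 were unlisted in every epidermis file and counted as 0 there. Of the genes higher, 30 were unlisted in the mixed follicle files.

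**Figure D1:**
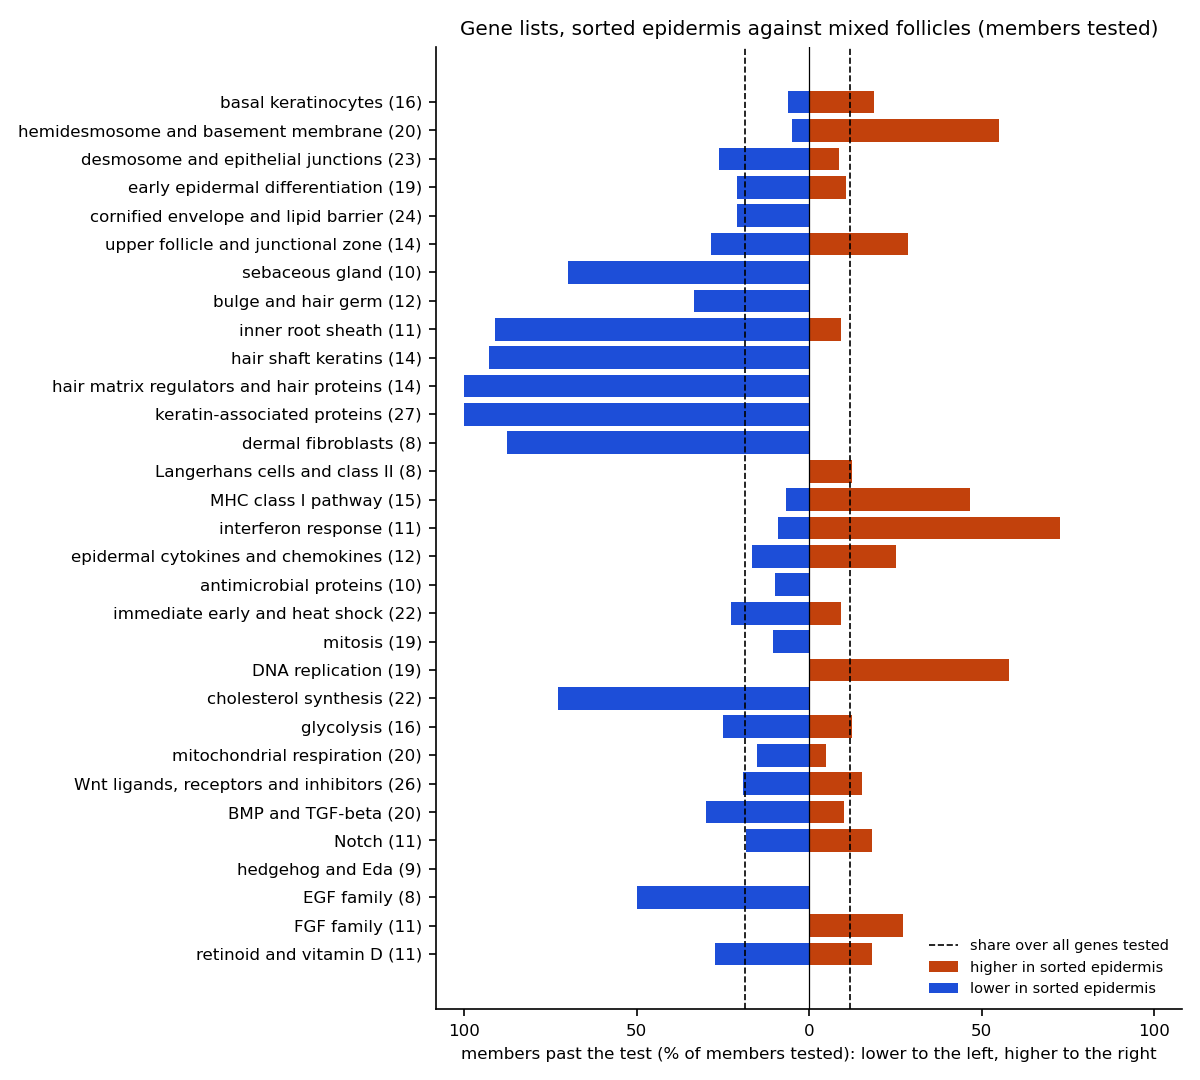
Share of tested members of each gene list (of lists with at least 8 tested members) that passed the test, with bars to the right for members higher in sorted epidermis and to the left for members lower (axis in % of members tested, number tested in brackets). Dashed lines mark the shares over all genes, 11.9% higher and 18.5% lower. Hemidesmosome, interferon, MHC class I and DNA replication lists reach farthest to the right, and the hair, dermal fibroblast, cholesterol and sebaceous lists to the left.

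The adhesion machinery of basal cells was higher in sorted epidermis. Of 20 tested genes of hemidesmosome and basement membrane 11 rose, 1 fell and 8 did not pass, with a median log2 fold change of 1.76. One of the 11, Itga6, was selected by the sort, so these genes are not independent of the gate. Summed over the list, epidermis libraries held 4539 to 5589 CPM and mixed follicle libraries 494.6 to 870.6. The count stayed at 9 or 10 when any 1 library was left out.

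Dst, which encodes dystonin (chromosome 1, 33908225 to 34308661), was at 1178, 1033 and 1267 CPM in epidermis and 48.9, 105 and 160 in mixed follicles (3.47 on the log2 scale, SE 0.59, adjusted p = 0.000335). Itga3, the integrin subunit that binds laminin-332 with Itgb1 (chromosome 11, 95044474 to 95076801), was at 145, 105 and 152 against 4.07, 4.93 and 5.29 CPM (4.79, SE 1.20, adjusted p = 0.00592). In both cases the groups were far apart. Cd151, a tetraspanin that associates with laminin-binding integrins, was at 274, 292 and 320 against 50.9, 96 and 81.1 CPM. Lama3 and Lamb3, subunits of laminin-332, rose as well (log2 fold changes 1.93 and 2.86), as did the anchoring fibril collagen Col7a1 (1.52) and Itgb4 (1.80). Fermt1, the integrin activator kindlin-1, rose by 1.35, and Frem2 by 2.99 from 0 to 4.07 CPM in mixed follicles. The member that fell was Nid1, a linker of the basement membrane, which had no count in epidermis and 11.2, 8.35 and 3.52 CPM in mixed follicles, at least 5.87-fold lower in epidermis.

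**Figure D2:**
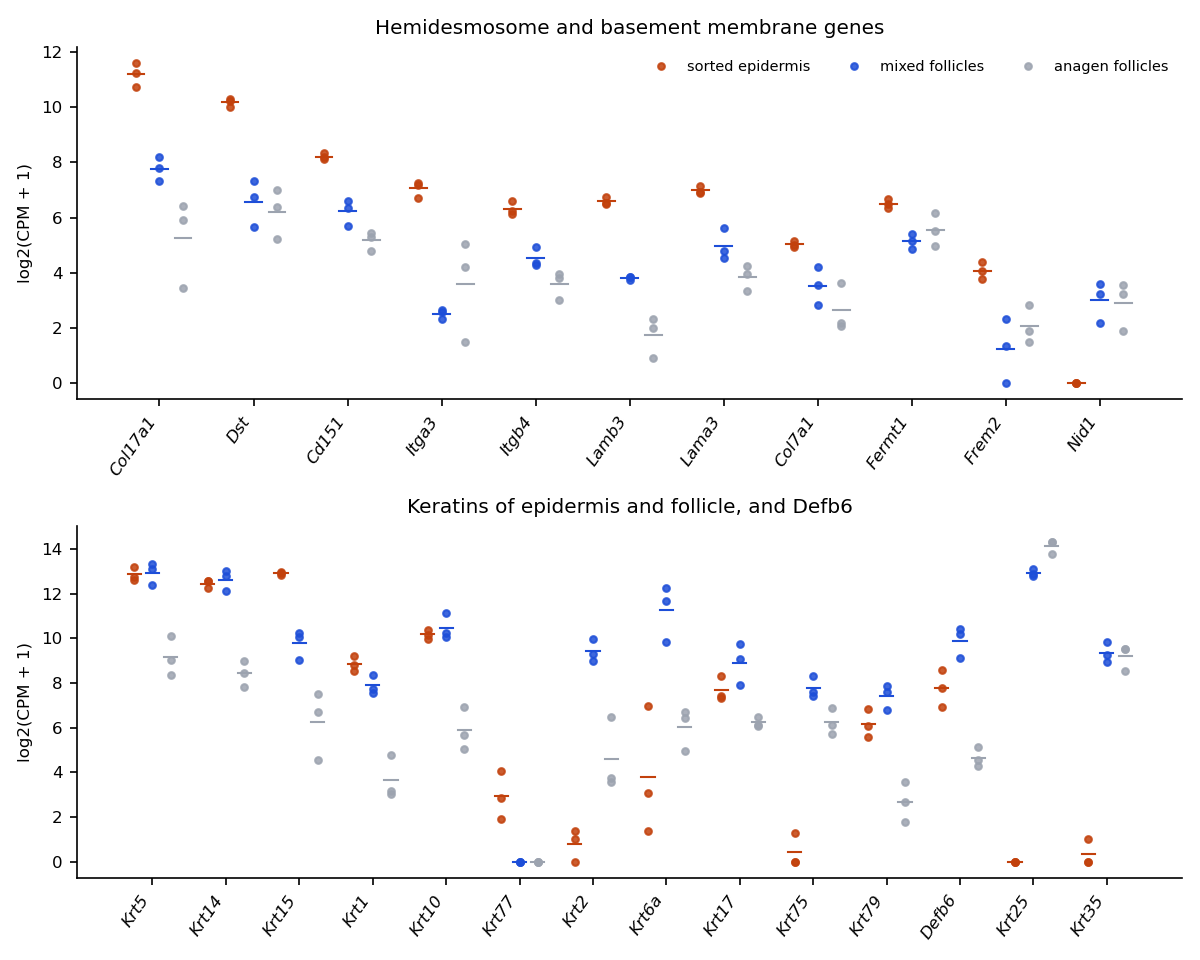
Level of each gene in each library as log2(CPM + 1), with 1 point per library, bars at the mean of these log values, and 3 libraries each of sorted epidermis, mixed follicles and anagen follicles. In the upper panel the epidermis points lie above the mixed follicles for all genes shown except Nid1. In the lower panel Krt5 and Krt14 overlap between epidermis and mixed follicles, while Krt2, Krt75, Krt25 and Krt35 are near 0 in epidermis.

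The keratins that define the basal layer, Krt5, Krt14 and Krt15, did not pass the test. Of 16 basal keratinocyte genes 3 rose and 1 fell, with a median of 0.75, and 5 rose by DESeq2 and 8 with the 6 libraries alone. Krt15, which basal cells and the bulge both express (chromosome 11, 100131758 to 100135928), was at 7787, 8169 and 7296 CPM in epidermis and 523, 1201 and 1082 in mixed follicles. Although the groups did not overlap, it did not pass (3.05, SE 1.25, adjusted p = 0.0724), but it passed as higher in 5 of 15 alternative fits. The members that rose were Trp63, the transcription factor p63 of stratified epithelia (125.8, 86.7 and 81.7 against 27.5, 30.4 and 38.8 CPM), the cyclin Ccnd2 (log2 fold change 1.98) and the Notch ligand Dll1 (3.35). Sfn, which encodes 14-3-3 sigma, an inhibitor of the cell cycle that rises as keratinocytes differentiate, was at 316, 375 and 324 CPM in epidermis and 2877, 2534 and 2094 in mixed follicles (−2.88, SE 0.77, adjusted p = 0.00888).

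Genes of differentiation were called lower in shares near those of all genes. Of 19 tested early differentiation genes 2 rose and 4 fell (median −0.85), and of 24 genes of the cornified envelope and lipid barrier 0 rose and 5 fell (median −1.92; 0 rose also by DESeq2 and by an unadjusted p under 0.05, and 1 with the 6 libraries alone). These counts moved with the fit: the numbers that fell were 10 and 13 with the 6 libraries alone, 2 and 3 without epidermis replicate 1 or 2, and 2 in the early list also without epidermis replicate 3 or mixed follicle replicate 1. Of the early genes 1 rose without any library but epidermis replicate 3. The keratin pair of the first suprabasal layers did not differ by the test. Krt10 was at 1010, 1331 and 1157 CPM in epidermis and 1069, 1197 and 2284 in mixed follicles (−0.38, SE 1.58, adjusted p = 0.887), and Krt1 at 366, 448 and 586 against 190, 214 and 328 (0.94, SE 1.68, adjusted p = 0.710). Transcripts of both suprabasal keratins were therefore present in every library of cells sorted for the basal integrin Itga6. Lor, which encodes the envelope protein loricrin, was at 59.8, 42.3 and 49.3 against 26.5, 81.2 and 150 CPM and did not pass (−0.76, adjusted p = 0.755).

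Krt2, a keratin of the upper spinous and granular layer (chromosome 15, 101810689 to 101818169), was at 1.57, 1.06 and 0 CPM in epidermis and 624, 516 and 1017 in mixed follicles (−9.55, SE 1.12, adjusted p = 9.42e-05). Its neighbour Krt77 (chromosome 15, 101858731 to 101869705) went the other way, at 15.7, 6.34 and 2.82 CPM in epidermis and without a count in mixed or anagen follicles, at least 11.6-fold higher. This call rests on few counts, was lost with DESeq2, and the gene passed the low-count filter in only 1 of 6 fits that left out a library. Sprr1a, a small proline-rich precursor of the cornified envelope (chromosome 3, 92483952 to 92485895), was at 4.72, 4.23 and 14.1 CPM in epidermis against 4003, 3167 and 7546 (−9.32, SE 1.59, adjusted p = 0.000343). Tgm1, the transglutaminase that cross-links the envelope, had no count in epidermis and 61.1, 46.3 and 30 CPM in mixed follicles, at least 34.97-fold lower. Sprr1b, the protease inhibitor Cst6 and the glucosylceramide synthase Ugcg were the other genes of the barrier list that fell. Anagen follicles held 5485 to 13380 CPM of Sprr1a.

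Cell junctions changed in both directions. Of 23 desmosome and junction genes 2 rose and 6 fell (median −0.71), and with the 6 libraries alone 5 rose and 10 fell. The number that rose was 1 without any library but epidermis replicate 1. Dsg2 and Dsc3, desmosomal cadherins of the lower layers, rose by 2.06 and 1.35 on the log2 scale. Dsc1, the desmocollin of the upper layers, was at 14.2, 8.45 and 16.9 CPM in epidermis and 455, 370 and 271 in mixed follicles (−4.80, SE 1.58, adjusted p = 0.0284), and Dsc2 fell by 3.97. Gjb2, the gap junction protein connexin 26 (chromosome 14, 57098600 to 57104702), was at 0, 0 and 15.5 CPM against 707, 572 and 432 (−6.81, SE 1.84, adjusted p = 0.00972). Gjb6, connexin 30, and the claudin Cldn4 fell by 5.54 and 5.12. The most abundant members, Dsp, Perp, Cdh1 and Pkp1, did not pass (log2 fold changes from −0.71 to 0.94). Dsp passed in 4 of 15 alternative fits and Pkp1 in 1.

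Most genes of the growing hair had no count or few counts in the sorted epidermis. All 27 tested keratin-associated protein genes, which encode the matrix that embeds hair keratin filaments, fell. They had no count in any epidermis library, and their sum in mixed follicles was 147000 to 730100 CPM, highest in replicate 3. These genes passed the low-count filter only through other libraries, so a call could only be lower. Of 14 hair shaft keratins 13 fell and of 14 hair matrix regulators and hair proteins all 14. In epidermis these 2 lists still summed to 84.92 to 125.4 and 101.4 to 129 CPM. Cux1 of the matrix list was at 70.8, 62.35 and 66.2 CPM there, against 228, 211 and 149.8 in mixed follicles. Of 11 inner root sheath genes 10 fell and 1 rose. No count in epidermis was found for 10 of 15 listed hair shaft, 7 of 16 matrix and 11 of 12 inner root sheath genes. The direction of a call was fixed for these members too. With any 1 library left out, the counts of keratin-associated proteins, hair shaft keratins and inner root sheath genes that fell stayed at 27, 13 and 10. Many of these genes are unlisted in the epidermis files, so when only genes listed in all 17 files were tested, these lists lost all their tested members but for the matrix list (4 lower) and the member that rose. Keratin-associated protein genes are near-identical copies whose reads the counting could split, and single members are uncertain.

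Krt25, a type I keratin of the inner root sheath (chromosome 11, 99315516 to 99322951), was at 8847, 7112 and 7502 CPM in mixed follicles and had no count in epidermis, at least 5974-fold lower. Tchh, trichohyalin of the same sheath (chromosome 3, 93442330 to 93449077), was at 6550, 5111 and 4961 CPM in mixed follicles and again at 0 in epidermis, at least 4232-fold lower. Krt31, a hair cortex keratin (chromosome 11, 100046646 to 100050551), was at 16020, 6060 and 4300 CPM against 1.57, 0 and 2.82. Krt35 was at 620, 923 and 499 CPM against 0, 1.06 and 0, and Hoxc13, a transcription factor of the hair matrix, at 478, 400 and 486 against 0, 1.06 and 0 (−9.78, SE 0.69, adjusted p = 1.61e-06). The 10 largest decreases among genes of at least median expression were keratin-associated proteins, led by Krtap22-2 at 29380, 19820 and 148000 CPM in mixed follicles, at least 50210-fold lower in epidermis. Krtap8-1 (chromosome 16, 89487379 to 89487952) followed with 39720, 27720 and 101600 CPM, at least 43040-fold lower. The member of the root sheath list that rose was Gata3, a transcription factor that epidermal keratinocytes also express, at 986, 1076 and 923 CPM in epidermis against 375.5, 406.4 and 222 (1.57, SE 0.53, adjusted p = 0.0331). That call was lost without each of the 6 libraries in turn.

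The promoters of these hair genes shared letters that most other genes lack. A window of 250 bases before to 50 after the annotated start was read for each gene from RefSeq (GRCm38.p6), and TATAAA was searched on both strands. It was present in 24 of 27 keratin-associated protein genes with a window, in 7 of 11 inner root sheath genes, which were the 7 keratins, and in 6 of 9 hair shaft keratins. Of all 27025 genes with a RefSeq window 15.7% held it, and of the 8284 tested genes among them 9.74% did. Windows are shown for the root sheath keratin and the keratin-associated protein described above because both genes were high in every mixed follicle library and had no count in epidermis, 5′ to 3′ with TATAAA in capitals (Krt25, minus strand, chr11:99322902-99323201; Krtap8-1, minus strand, chr16:89487903-89488202). The capitals start 30 and 29 bases before the annotated start. Copies within a family share ancestry, so their windows are not independent, and a match is a description of letters only.
Krt25: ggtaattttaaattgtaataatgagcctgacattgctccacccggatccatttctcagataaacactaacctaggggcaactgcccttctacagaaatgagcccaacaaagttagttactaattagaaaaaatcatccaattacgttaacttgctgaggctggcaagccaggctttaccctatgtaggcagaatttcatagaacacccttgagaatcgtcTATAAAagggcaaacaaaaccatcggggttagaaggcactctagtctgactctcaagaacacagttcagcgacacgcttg
Krtap8-1: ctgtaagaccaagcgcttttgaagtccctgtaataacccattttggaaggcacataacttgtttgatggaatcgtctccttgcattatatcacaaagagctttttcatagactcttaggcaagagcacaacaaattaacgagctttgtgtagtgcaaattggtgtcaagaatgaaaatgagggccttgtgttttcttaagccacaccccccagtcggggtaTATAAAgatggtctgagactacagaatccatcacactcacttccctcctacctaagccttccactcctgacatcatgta

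Genes of other follicle compartments were also lower in sorted epidermis. Of 10 tested sebaceous gland genes 7 fell and 3 did not pass (median −3.13). Scd1, the fatty acid desaturase (chromosome 19, 44394455 to 44407879), was at 115, 83.5 and 56.4 CPM in epidermis and 296, 620 and 368 in mixed follicles (−2.34, SE 0.38, adjusted p = 0.00024). Elovl3, a fatty acid elongase of the gland, had no count in epidermis against 154, 108 and 47.6 CPM, at least 78.8-fold lower. Anagen follicles held 158, 309 and 503 CPM of Elovl3, so its level was not particular to the mixture. Of 6 genes of outer root sheath and companion layer 3 fell, and 5 without epidermis replicate 3. Krt75, the companion layer keratin (chromosome 15, 101563345 to 101573904), was at 0, 0 and 1.41 CPM against 196, 172 and 322 (−8.77, SE 0.79, adjusted p = 1.94e-06), and the transcription factor Barx2 fell by 2.18.

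One epidermis library carried more of the inducible keratins than the others. Krt6a was at 1.57, 7.4 and 125 CPM in epidermis and 925, 3253 and 4864 in mixed follicles (−6.07, SE 1.35, adjusted p = 0.00264). Krt16 was at 7.86, 2.11 and 91.6 against 40.7, 791 and 465 (adjusted p = 0.0944), and Krt6b at 4.72, 0 and 102 against 0, 1.52 and 0 (adjusted p = 0.0871). Krt6a, Krt6b and Krt16 were highest in epidermis replicate 3, where Sox9, a transcription factor of the outer root sheath and bulge, was also high at 393 CPM against 64.5 and 79.2. Without that library Krt16 and Krt17 passed the test as lower. Krt6a and Krt6b are near-identical copies, and their split is uncertain.

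Of 12 bulge and hair germ genes 4 fell, 0 rose (also by DESeq2 and by an unadjusted p under 0.05, but 2 with the 6 libraries alone) and 8 did not pass (median −0.68). The number that fell was 2 without epidermis replicate 1 or 2 or mixed follicle replicate 3. Lgr5, the Wnt-associated receptor of bulge and germ stem cells (chromosome 10, 115450311 to 115587780), was at 0, 0 and 1.41 CPM in epidermis and 9.16, 13.7 and 30 in mixed follicles (−5.01, SE 1.47, adjusted p = 0.0222), a call lost in 3 of 6 fits without 1 library. Foxc1, a transcription factor of bulge and gland, was at 11, 22.2 and 56.4 against 320, 369 and 486 (−3.71, SE 0.61, adjusted p = 0.00024), and Tcf7l1 and Nfatc1 also fell. Cd34, which marks the bulge, was low in both groups at 1.06 to 7.05 and 6.11 to 8.81 CPM and did not pass (−0.85, adjusted p = 0.706). Postn and Gas1, members of the same list, lay at 51.9 to 65.5 against 19.4 to 32.2 CPM and at 97.5 to 152 against 42.7 to 123, and neither passed.

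The upper follicle list divided evenly, with 4 of 14 genes up and 4 down (median −1.16). Lgr6, a receptor of stem cells of the isthmus and epidermis (chromosome 1, 134983301 to 135105276), was at 4.72, 11.6 and 12.7 CPM in epidermis and 1.02, 0 and 0 in mixed follicles (4.84, SE 1.34, adjusted p = 0.0112), a call lost without mixed follicle replicate 2. Aldh3a1, an aldehyde dehydrogenase, was at 330, 394 and 517 against 27.5, 38.3 and 44.1 CPM (3.50, SE 0.82, adjusted p = 0.00364). Sostdc1, an inhibitor of BMP and Wnt signalling, and Fst, which binds activin, were the other 2 that rose. Besides Defb6, the defensin Defb1, the kallikrein Klk10 and the keratin Krt23 fell, with log2 fold changes of −3.02, −5.24 and −5.04. The Klk10 call was lost in 2 of 6 fits without 1 library. The number that rose was 1 without mixed follicle replicate 2 and 2 without mixed replicate 1 or epidermis replicate 3, and the number that fell was 2 without epidermis replicate 1 or 2.

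Markers of cells other than keratinocytes differed between the preparations. All 5 tested melanocyte genes fell, and the list summed to 6.29 to 19.73 CPM in epidermis and 192.3 to 313.7 in mixed follicles. Of the 10 listed members 7 had no count in epidermis, among them Pmel, the melanosome scaffold, Sox10 and Kit. A call of such a member could only be lower. Of 8 dermal fibroblast genes 7 fell. That list summed to 62.9 to 107.1 against 1292 to 2508 CPM, and in anagen follicles it summed to 60.93 to 433.7. Col3a1 was at 136, 436 and 321 CPM in mixed follicles and 0 in epidermis, at least 227.5-fold lower, while Sparc, a matrix protein, was at 51.9, 65.5 and 98.7 against 752, 1291 and 1170. The number of fibroblast genes that fell was 4 without mixed follicle replicate 2 or 3.

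Red blood cell markers were lower in epidermis, and few immune markers passed the test. All 3 tested red blood cell genes fell, and the list summed to 0 to 1.06 CPM in epidermis and 78.36 to 250.2 in mixed follicles, with Hbb-bs, 1 of several near-identical globin genes, at 39.7, 109 and 146 CPM in mixed follicles and no count in epidermis or anagen follicles. Of the 5 listed members 4 had no count in epidermis, and a call of such a member could only be lower. The 8 endothelial genes had no count in epidermis and summed to 7.124 to 19.35 CPM in mixed follicles, too low to test. Fabp4, a fatty acid binding protein of adipocytes and sebaceous gland, was at 1094, 774 and 1244 CPM against 0, at least 792.5-fold lower. The Langerhans cell and class II list summed to 307.2 to 528.4 CPM in epidermis and 108.9 to 234.9 in mixed follicles, and 1 of its 8 tested genes rose, a share near the 11.9% of all genes, namely H2-Eb1 (234, 209 and 121 against 32.6, 77.8 and 59.9 CPM), a call lost in 5 of the 6 fits without 1 library. The T cell list, which includes markers of the dendritic epidermal T cells, summed to 64.48 to 105.7 against 20.35 to 39.84, and of its 3 tested genes 1, the leukocyte gene Ptprc, rose (12.6, 12.7 and 5.64 against 0, 0.379 and 1.76 CPM). Of 2 tested macrophage genes 0 passed by edgeR (2 at an unadjusted p under 0.05, in opposite directions, and 0 by DESeq2), and their list summed to 7.046 to 7.863 against 5.088 to 21.15 CPM.

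**Figure D3:**
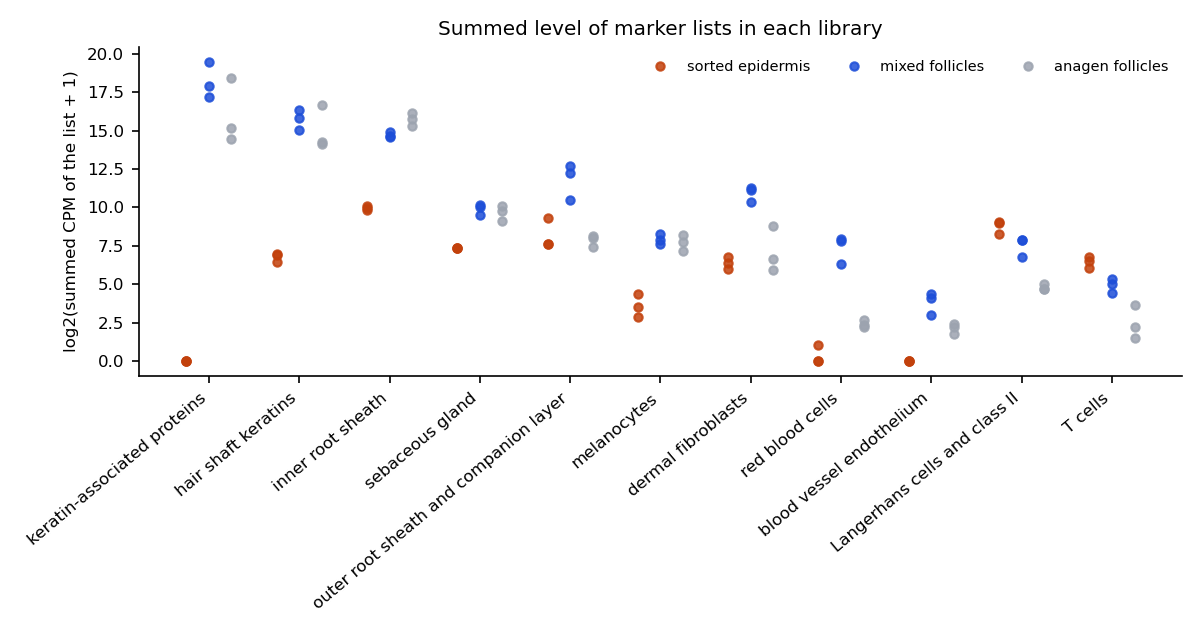
Summed level of each marker list in each library as log2(summed CPM + 1), with 1 point per library for sorted epidermis, mixed follicles and anagen follicles. The hair lists, fibroblasts, melanocytes and red blood cells are lower in every epidermis library than in every mixed follicle library, and the Langerhans and T cell lists are higher.

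Genes of antigen presentation and of the interferon response were higher in sorted epidermis. Of 15 tested genes of the MHC class I pathway 7 rose, 1 fell and 7 did not pass (median 1.08), and 6 or 7 rose when any 1 library was left out. Of 11 tested interferon response genes 8 rose, 1 fell and 2 did not pass (median 2.52). The latter count was 3 to 6 with 1 library left out. It was 3 when mixed follicle replicate 2 was omitted, 4 when mixed replicate 1 was, and 5 when mixed replicate 3 or epidermis replicate 1 or 3 was. The Langerhans and T cell sums given above are higher in the same libraries, and their part in these results was not tested.

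B2m, the light chain of every class I molecule (chromosome 2, 122147686 to 122153083), was at 1198, 1316 and 1360 CPM in epidermis and 74.3, 101 and 98.7 in mixed follicles (3.82, SE 0.45, adjusted p = 1.49e-05). Nlrc5, the transactivator of class I genes (chromosome 8, 94434356 to 94527272), was at 73.9, 44.4 and 46.5 CPM and had no count in mixed or anagen follicles, at least 76.6-fold higher, though it is unlisted in the mixed follicle files. Psmb8, a subunit of the immunoproteasome (chromosome 17, 34197721 to 34201454), was at 83.3, 90.9 and 78.9 against 3.05, 2.28 and 3.52 CPM (4.90, SE 0.79, adjusted p = 0.000209). Its partners Psmb9 and Psmb10 rose by 3.63 and 3.01, and the peptide transporter Tap1 by 3.47, from 7.12 to 12.9 CPM in mixed follicles to 98.65 to 133.7 in epidermis. Tap1 and Psmb9 are neighbours transcribed away from each other, and their promoter windows overlap by 275 bases. The heavy chain gene H2-K1 did not differ by the test (189, 237 and 142 against 134, 174 and 231 CPM). H2-D1 fell (6.29, 16.9 and 28.2 against 273.7, 234.9 and 257.3), but it was at only 6.05, 8.44 and 16.1 CPM in anagen follicles. It was also higher in mixed than in anagen follicles (edgeR adjusted p = 0.00011), so tissue and source table cannot be told apart for H2-D1. Class I heavy chains are near-identical copies, so counts of single members are uncertain.

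Irf9, a DNA-binding factor of interferon signalling (chromosome 14, 55603571 to 55610030), was at 89.6, 95.1 and 73.3 CPM in epidermis and 15.3, 12.9 and 14.1 in mixed follicles (2.61, SE 0.34, adjusted p = 3.4e-05). Ifi27 was at 92.8, 106 and 67.6 against 8.14, 16.3 and 22.9. Ifitm3, a membrane protein that restricts viral entry, was at 170, 193 and 194 against 31.6, 47.8 and 49.3 CPM, a narrow call (2.11, SE 0.78, adjusted p = 0.0481) lost in all 6 fits without 1 library. Irf1, Gbp2, Usp18 and Parp14 also rose (Usp18 was lost in 1 of 6 fits without 1 library and Parp14 in 4 of the 5 that tested it), and Xaf1 fell (2.11 to 4.23 against 17.3 to 35.2 CPM).

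The letters GAAANNGAAA, the core of the element bound by interferon-activated factors, were present in the promoter windows of 7 of 13 interferon list genes and of 3 of 14 class I pathway genes, against 3.99% of all genes with a window and 3.44% of tested genes. The window of B2m (plus strand, chr2:122147437-122147736) and that of Ifitm3 (minus strand, chr7:141010695-141010994) are shown with the matches in capitals. In B2m the match starts 139 bases before the annotated start, and in Ifitm3 both matches lie after it.
B2m: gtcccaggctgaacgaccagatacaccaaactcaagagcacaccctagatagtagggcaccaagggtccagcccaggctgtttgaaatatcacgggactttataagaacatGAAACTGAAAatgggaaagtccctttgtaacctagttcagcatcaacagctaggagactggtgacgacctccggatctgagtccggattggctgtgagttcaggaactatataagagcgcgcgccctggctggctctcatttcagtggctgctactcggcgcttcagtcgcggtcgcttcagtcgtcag
Ifitm3: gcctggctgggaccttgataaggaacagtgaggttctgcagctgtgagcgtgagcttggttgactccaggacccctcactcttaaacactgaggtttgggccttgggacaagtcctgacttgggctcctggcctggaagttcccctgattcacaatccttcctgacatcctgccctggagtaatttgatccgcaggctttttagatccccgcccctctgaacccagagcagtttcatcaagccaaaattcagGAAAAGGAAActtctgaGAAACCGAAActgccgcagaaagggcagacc

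Among epidermal cytokines 3 of 12 tested genes rose and 2 fell (median 0.78). The number that rose was 1 without epidermis replicate 2 or mixed follicle replicate 1, and the number that fell was 1 without any library but mixed replicate 2. Il34, the keratinocyte cytokine on which Langerhans cells depend (chromosome 8, 110741829 to 110805924), was at 70.8, 45.4 and 46.5 CPM in epidermis and 1.02, 1.14 and 0 in mixed follicles (5.76, SE 0.93, adjusted p = 0.000231). The chemokines Ccl27a and Cxcl16 rose by 2.52 and 2.07. Il1a, an alarmin of keratinocytes, was at 0, 1.06 and 0 against 42.7, 20.5 and 74 CPM (−6.42, SE 1.27, adjusted p = 0.00116), and Tgfb2 fell by 3.12.

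**Figure D4:**
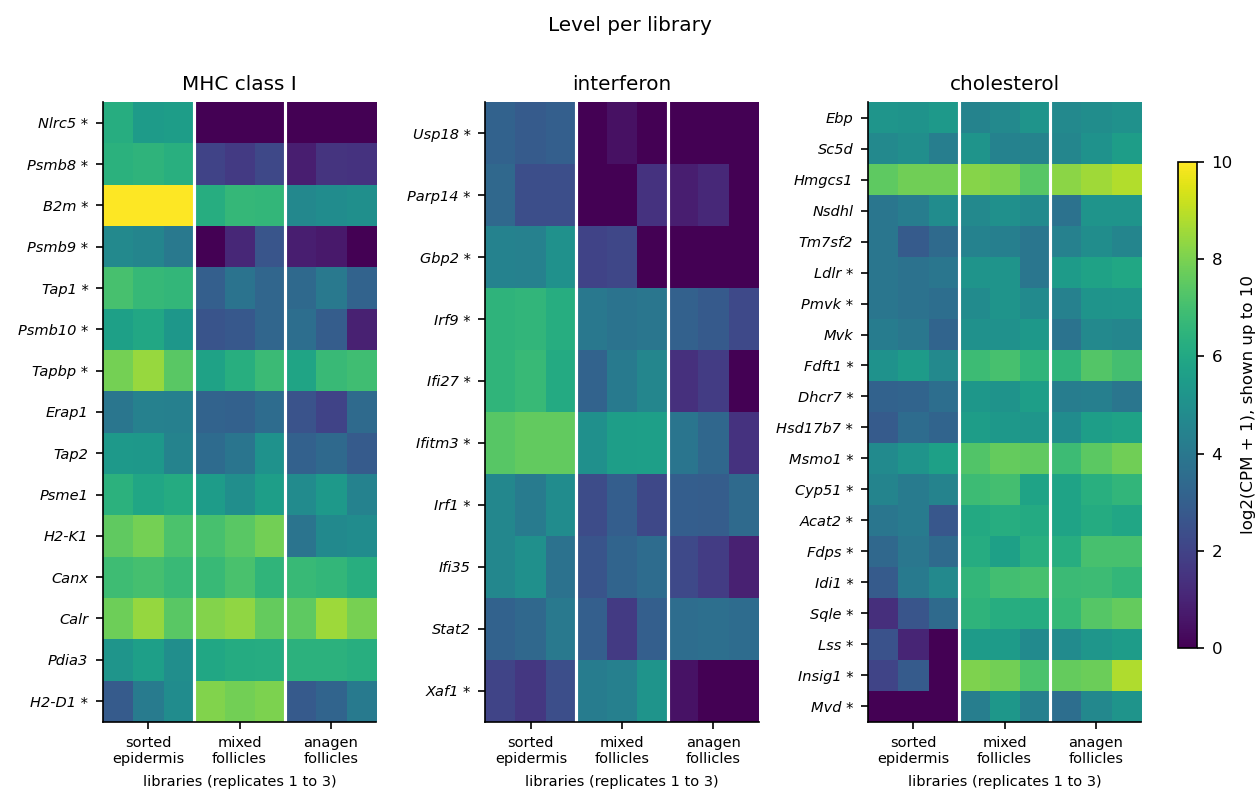
Heat map of genes of 3 lists that were tested (most members are shown), 1 column per library (replicates 1 to 3 of sorted epidermis, mixed follicles and anagen follicles) and 1 row per gene, coloured by log2(CPM + 1) up to 10, with an asterisk at genes past the test. B2m, Nlrc5 and Psmb8 are brightest in the epidermis columns, and Mvd and Insig1 are darker there than in the follicle columns.

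Genes of DNA replication were often higher in epidermis, and 0 mitosis genes were. Of 19 replication genes 11 rose, none fell and 8 did not pass (median 1.78), and their sum was 1036 to 1320 CPM against 296.1 to 392.8. In anagen follicles this sum spanned 276.9 to 1290 CPM and so reached the range of epidermis. Of 19 mitosis genes none rose, 2 fell and 17 did not pass (median 0.20), and their sums overlapped at 295.6 to 490.4 and 357.7 to 491.5 CPM. For genes of mitosis that were higher, DESeq2 and an unadjusted p under 0.05 in edgeR also gave 0, but the 6 libraries alone gave 2. For replication genes that were lower, each of these 3 gave 1. The difference between these 2 lists was not tested. The replication count was 4 without mixed follicle replicate 2, 6 without mixed replicate 3 or epidermis replicate 2, and 9 without each of the other 3 libraries.

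Mcm2, a subunit of the replicative helicase (chromosome 6, 88883474 to 88898780), was at 120, 99.3 and 108 CPM in epidermis and 7.12, 12.1 and 5.29 in mixed follicles (3.61, SE 0.52, adjusted p = 9.38e-05). Mcm7 of the same ring was at 231, 294 and 272 against 57, 24.7 and 21.1 (2.95, SE 0.60, adjusted p = 0.00135), and Mcm5 and Mcm6 rose by 3.07 and 2.31. Pcna, the sliding clamp, was at 170, 275 and 170 against 82.4, 76.6 and 63.4 CPM, a call lost in 3 of 6 fits without 1 library. Prim1, the primase subunit, was at 78.6, 87.7 and 95.8 against 17.3, 20.9 and 22.9. Gins1, a further helicase component and one of the 10 largest increases among genes of at least median expression, was at 67.6, 134 and 110 against 2.04, 1.9 and 3.52 CPM (5.49, SE 0.95, adjusted p = 0.000375). The enzymes of thymidine and deoxynucleotide supply, Tyms and Rrm2, did not pass (−1.73 and −0.13).

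Mki67, the proliferation antigen expressed through the active cycle, was at 23.6, 38 and 49.3 CPM in epidermis and 59, 37.2 and 19.4 in mixed follicles (−0.07, SE 0.79, adjusted p = 0.959). Top2a was at 58.2, 69.7 and 84.6 against 90.6, 47 and 28.2, and Cdk1 at 50.3, 78.2 and 66.2 against 50.9, 36.4 and 31.7, with overlapping ranges in both. The 2 genes that fell were the spindle motor Kif11 (−2.50, adjusted p = 0.0203) and the mitotic ubiquitin-conjugating enzyme Ube2c (−2.36, adjusted p = 0.0266), and these calls were lost in 4 and 5 of the 6 fits without 1 library. Anagen follicles spanned a wide range, with Mki67 at 283, 174 and 48.4 CPM.

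**Figure D5:**
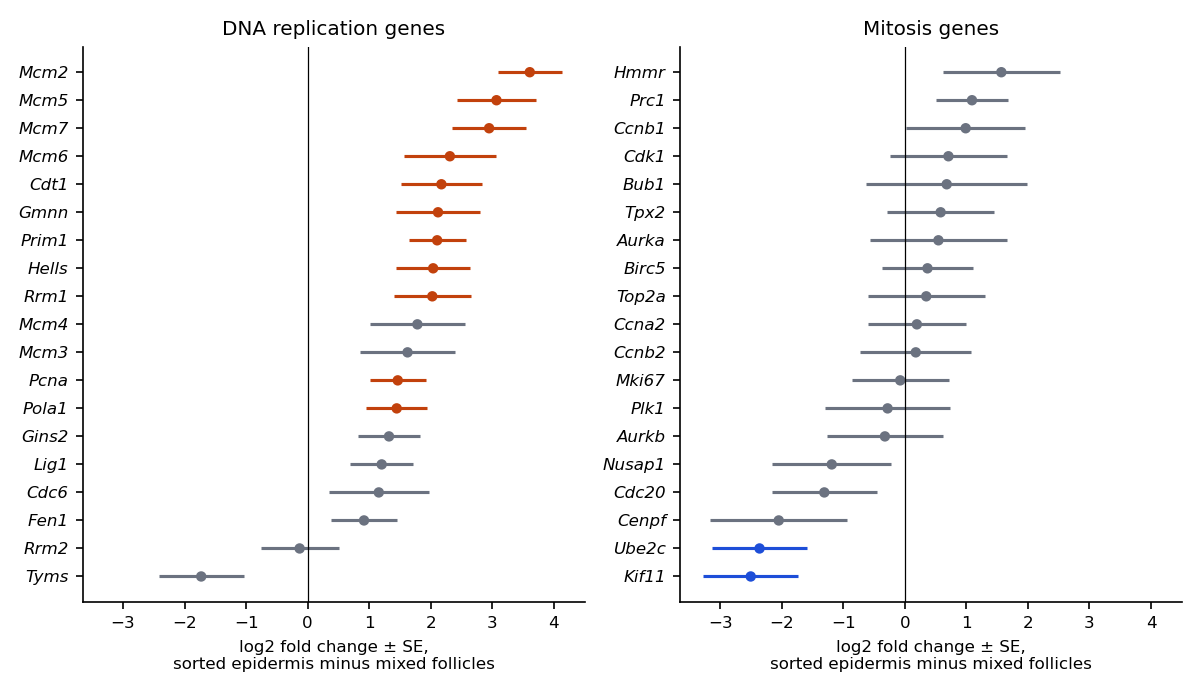
Log2 fold change with its standard error, sorted epidermis minus mixed follicles, for tested genes of DNA replication (left) and mitosis (right), coloured orange where higher and blue where lower by the test and grey where not past it. Of the replication genes 11 of 19 are orange, and of the mitosis genes none.

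Cholesterol synthesis was lower in sorted epidermis along most of the pathway. Of 22 tested genes 16 fell and 6 did not pass (median −2.25), and their sum was 474.9 to 551.6 CPM against 1688 to 1988. With 1 library left out 11 to 16 fell. Insig1, the sterol-regulated retention protein of the pathway (chromosome 5, 28071363 to 28078662), was at 3.15, 6.34 and 0 CPM in epidermis and 268, 232 and 144 in mixed follicles (−5.96, SE 0.65, adjusted p = 7.98e-06). Sqle, squalene epoxidase, fell by 3.77. Mvd had no count in epidermis, at least 19.3-fold lower. Hmgcs1, the most abundant member, was at 182, 225 and 226 against 289, 262 and 167 CPM and did not pass (−0.18, adjusted p = 0.864). In anagen follicles the list summed to 1515 to 2513 CPM. Genes of the sebaceous gland, a lipid-producing tissue, were higher in the same follicle libraries, and their part in this result was not tested.

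The box CCAAT, bound by the factor NF-Y, was in the promoter window of 15 of 16 cholesterol genes with a window, and in 14 of 16 mitosis and 10 of 17 DNA replication genes, against 41.1% of all genes with a window and 42.6% of tested genes. The window of Insig1 (plus strand, chr5:28071162-28071461), the most changed member with such a window other than one at 0, holds it once on the reverse strand, written ATTGG in capitals, 216 bases before the start.
Insig1: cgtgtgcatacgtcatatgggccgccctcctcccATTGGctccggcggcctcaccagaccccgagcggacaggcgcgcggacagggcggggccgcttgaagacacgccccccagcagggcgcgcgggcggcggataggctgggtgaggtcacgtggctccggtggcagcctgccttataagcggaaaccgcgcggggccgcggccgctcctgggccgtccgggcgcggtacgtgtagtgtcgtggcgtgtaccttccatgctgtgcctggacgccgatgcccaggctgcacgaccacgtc

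Signalling genes were read by family, and the median of the Notch list turned from −0.22 to 0.07 with upper quartile scaling. Of 11 FGF family genes 3 rose and 0 fell (median 1.34). Fgfr2, the receptor of Fgf10 and other ligands made by dermis, was at 165, 220 and 179 CPM in epidermis and 56, 66.8 and 33.5 in mixed follicles (1.83, SE 0.53, adjusted p = 0.0148). Fgfr3 was at 36.2, 35.9 and 31 against 9.16, 9.11 and 3.52, and Spry2, a feedback inhibitor, rose by 2.05. Of 8 EGF family genes 0 rose and 4 fell (median −1.42), namely the ligands Tgfa, Ereg and Areg and the feedback inhibitor Errfi1, whose call was lost in 5 of 6 fits without 1 library. Tgfa was at 0, 0 and 1.41 CPM against 38.7, 30.7 and 45.8 (−6.18, SE 0.84, adjusted p = 5.16e-05). Egfr, their receptor, was at 25.2, 20.1 and 19.7 against 28.5, 29.6 and 45.8 and did not pass. With 1 library left out 2 to 4 EGF family genes fell, 2 of them without epidermis replicate 2, and 2 or 3 FGF family genes rose. DESeq2 and an unadjusted p under 0.05 also gave 0 FGF genes lower and 0 EGF genes higher.

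In the Wnt list 4 of 26 genes rose and 5 fell (median 0.18), and 8 rose with the 6 libraries alone. The ligands Wnt3, Wnt7b and Wnt10a rose by 1.44, 2.82 and 1.11, and Lrp4, a receptor that modulates the pathway, was at 42.5, 51.8 and 53.5 CPM against 1.02, 4.93 and 1.76. Nkd1, a negative feedback target, had no count in epidermis against 108, 58.8 and 35.2 CPM, at least 51.4-fold lower, and the mediator Tcf7, the receptors Fzd1 and Fzd3 and the ligand Wnt11 fell. Wnt4, the most abundant ligand of the list, was at 116, 198 and 123 against 134, 132 and 144 and did not pass. The number that rose was 2 without mixed follicle replicate 3 or epidermis replicate 3, and the number that fell was 3 without mixed replicate 1 or epidermis replicate 1.

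In the BMP and TGF-beta list 2 of 20 genes rose and 6 fell (median −0.90). The receptors Tgfbr2 and Tgfbr3 rose by 2.05 and 2.88. Bmp8a was at 130, 124 and 74 CPM in mixed follicles and 0 in epidermis, at least 83.7-fold lower, and Smad6, an inhibitory Smad, was at 55, 39.1 and 15.9 against 0. The BMP target Id2 fell by 1.65 and the pseudoreceptor Bambi by 8.05, while Id1 and Id3 did not pass (−0.01 and −0.92). Without epidermis replicate 2 the number that fell was 3. In the Notch list 2 of 11 rose and 2 fell, and 0 rose without epidermis replicate 2 or mixed follicle replicate 1 or 3, and 1 without each of the others. Jag2, a ligand, rose by 2.58 and was lost in 5 of 6 fits without 1 library, while Notch2 was at 28.3, 35.9 and 26.8 CPM against 168, 140 and 102 (−2.17, SE 0.49, adjusted p = 0.0028).

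In the retinoid and vitamin D list 2 of 11 genes rose and 3 fell. Cyp26b1, which degrades retinoic acid (chromosome 6, 84571414 to 84593908), was at 3.15, 1.06 and 0 CPM in epidermis and 119, 147 and 159 in mixed follicles (−6.65, SE 0.61, adjusted p = 1.61e-06). Crabp2, a retinoic acid binding protein, was at 20.4, 11.6 and 31 against 111, 199 and 384, and Stra6, a retinol transporter, also fell, a call lost in 4 of 6 fits without 1 library. The receptors Rarg and Rxra rose by 1.10 and 1.80, the former lost in all 6 fits without 1 library, and Vdr was alike in value at 195, 140 and 209 against 207, 181 and 155 CPM (0.00, adjusted p = 1). By edgeR's test 0 of 9 tested hedgehog and Eda genes passed, with 3 at an unadjusted p under 0.05 and 0 by DESeq2. In other edgeR fits 1 was called higher with upper quartile scaling and without mixed follicle replicate 1, and 2 with the 6 libraries alone.

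The largest increases in epidermis among genes of at least median expression were of mixed function. Clca3a2, of the calcium-activated chloride channel regulator family (chromosome 3, 144796559 to 144819494), was at 621, 437.5 and 494.7 CPM against 2.04, 7.21 and 1.76 (6.84, SE 0.72, adjusted p = 5.35e-06). Cdh4, R-cadherin (chromosome 2, 179442431 to 179899373), was at 149, 149 and 91.6 against 1.02, 1.9 and 1.76 (6.25, SE 0.55, adjusted p = 1.61e-06). Skint9, of a family of selection molecules for epidermal T cells, was at 186, 185 and 123 against 2.04, 3.79 and 0 CPM (5.96, adjusted p = 0.00977). Slc6a4, the serotonin transporter (chromosome 11, 76998603 to 77032340), was at 135, 154 and 182 against 1.02, 2.28 and 5.29 (5.93, SE 0.91, adjusted p = 0.000147). Fcgbp and the sulfotransferase Sult5a1 rose by 5.78 and 5.65. In mixed follicle libraries none of these genes exceeded 10.2 CPM.

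Among the 10 largest of these increases, Vmn2r55, Mir6240 and Scaf1 were low in the mixed follicles alone of the 3 tissues. Vmn2r55, named for a vomeronasal receptor, was at 1579, 1802 and 974 CPM in epidermis and 9.16, 11.4 and 19.4 in mixed follicles, but at a mean of 3231 CPM in anagen follicles. Mir6240 had no count in mixed follicles and was at 368, 64.5 and 57.8 CPM in epidermis, and Scaf1 was at 31.4, 6.34 and 32.4 against 1.02, 0.379 and 0. All 3 were lower in mixed than in anagen follicles (adjusted p = 0.00273, 4.6e-05 and 0.0178), a comparison that shares the mixed libraries and in which 6.63% of tested genes were called, 1.21% as lower. Gapdh, a glycolytic enzyme with many near-identical copies, showed the reverse, at 17.3, 5.28 and 9.87 CPM in epidermis, 2.82, 4.22 and 0.896 in anagen follicles and 3308, 4310 and 5171 in mixed follicles. For such genes tissue and source table cannot be told apart.

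Genes of carbohydrate and energy metabolism showed no common direction. Of 16 glycolysis genes 2 rose and 4 fell (median 0.05), with Gapdh among the latter. The number that rose was 0 without epidermis replicate 1 or 2 or mixed follicle replicate 1 or 2, and 1 without epidermis replicate 3. Aldoa, aldolase, was at 300, 182 and 196 CPM in epidermis and 2499, 1753 and 3109 in mixed follicles (−3.44, SE 0.70, adjusted p = 0.00144), and the hexokinase Hk2 and the lactate dehydrogenase Ldha fell by 3.88 and 1.96. The phosphofructokinases Pfkl and Pfkp rose by 1.78 and 1.82. Of 20 respiratory chain genes 1 rose, Cox4i1 (1.62), and 3 fell, Cox7a2, Sdhb and Ndufb8 (−2.10, −1.81 and −1.54), and that list's median turned from −0.26 to 0.03 with upper quartile scaling, under which 4 rose.

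Transcripts induced by handling of tissue did not move as one group. Of 22 immediate early and heat shock genes 2 rose and 5 fell (median −0.20, and 0.09 with upper quartile scaling), with sums of 2574 to 3071 and 2835 to 5199 CPM. Jund was at 182, 104 and 213 CPM in epidermis against 902, 1134 and 701 (−2.46, SE 0.41, adjusted p = 0.000289). Dusp1 and Socs3, feedback inhibitors of MAP kinase and cytokine signalling, rose by 3.06 and 3.02. Jun, Hspa8 and Hspa1b did not pass (log2 fold changes −0.08, 0.27 and −0.41). The number that fell was 1 without epidermis replicate 1, 2 without epidermis replicate 2 or mixed follicle replicate 3, and 3 without epidermis replicate 3.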

How the data were processed

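CEL-seq2 counts of 9 tissue libraries were analysed, with 8 organoid libraries in the same fit to share the estimate of spread (17 libraries). Per the labels, these organoids were grown with Forskolin and Fgf1 and were passaged, some early and some late in culture. The deposited files hold raw counts per gene symbol, 1 file per library, with no value that departed from a whole number, and 29 of the 32 files name the count column by a bare number, so their unit was read from the deposited values. Per the submitters' processing notes, BWA 0.6.2-r126 aligned the reads, with mm10 as the build. Counting software, annotation and any use of molecular identifiers: not given in the sources used here. A gene missing from a file was taken as 0, 14 spike-in names were left out, and no mitochondrial gene was listed. Of 19974 names 11511 were listed in all 6 files compared. Coordinates are whole genes of GENCODE M21 (GRCm38), with a unique match for 19024 names, and promoter windows are RefSeq's.

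edgeR 4.0.16 (R 4.3.3) was used with TMM scaling. Genes passed filterByExpr within groups at a minimum count of 10 and a minimum total of 15. A gene without a count in epidermis could pass this filter only through other libraries, and could then be called only lower. The quasi-likelihood test was adjusted over 10843 genes by Benjamini and Hochberg. A fold against a group without counts is a lower bound, taken against 3 counts in the summed total of that group. This floor covers counting error only. On simulated counts (9268 genes) the test of this comparison called 2, 38, 64 and 80% of genes changed 2-, 4-, 8- and 16-fold, with 2 false calls. Only 50 genes were changed at each fold, and all others had the same mean in every group. In the data 30.3% of genes were called, which changes the adjustment, so these shares are not the sensitivity of the comparison. At the filter's minimum, counting error alone spans several fold.

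The 44 gene lists (656 genes), the libraries and the tests were chosen with earlier results of these data known, and a list is described by counts and medians without a test of its own. Named genes were the 10 largest increases and decreases that passed, had median expression or more and did not overlap between groups (predicted genes and pseudogenes left out), up to 6 genes per list (the 4 with the highest CPM and the 2 largest changes past the test), and Col17a1, Defb6, Krt79, Itga6, Ly6a, Krt5, Krt14, Krt15, Krt10, Krt1, Lor, Mki67, Cd34, Lgr5, Lgr6, Krt25, Krt35 and Gapdh. Other members of a list that passed were named after their values were seen. In the promoter windows 9 motifs were searched on both strands, and 3 of them (the TATA motif TATAAA, the CCAAT box and the interferon-type repeat GAAANNGAAA) were described after their shares had been seen. The others were the Lef/Tcf core CTTTGA, the homeobox core TTTATN, the AP-1 site TGACTCA, the Stat half-sites TTC and GAA with 3 bases between them, the T-box core GGTGTGA and the repeat CATGNNNNNCATG. The sterol regulatory element was also looked for and is not described. TATAAA is a case of the reverse complement of TTTATN. Alternatives were RLE and upper quartile scaling, no low-count filter, DESeq2 1.42.0, the libraries compared alone, the 9 tissue libraries, genes listed in all files, counts thinned to 469839 per library, a replicate block, and each library left out in turn. Some members of the interferon and cholesterol lists are counted but not reported by name here.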

Additional observations from a re-analysis of the deposited data

How the results depend on the processing

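The number of genes that differed between sorted epidermis and mixed follicles, 3289, stayed within 1.5 times of that value under every alternative tried. It was 2366 to 2627 with 1 library left out, and otherwise 2390 (counts thinned to equal depth) to 4226 (the 6 libraries alone). For mixed against anagen follicles 719 genes differed, 1292 with the 9 tissue libraries fitted alone, a fit with fewer libraries whose cause was not tested, and 400 to 662 with 1 library left out (439 and 458 without mixed follicle replicates 2 and 3, and 400 without anagen replicate 2). The labels do not say whether the replicate numbers pair the samples. Deviations from the group means of same-numbered libraries correlated at 0.00953, 0.0283 and 0.00549, which cannot settle it. A replicate block gave 3812 and 1056 genes. With that block 13 barrier and 8 early differentiation genes fell, and 6 basal keratinocyte, 5 FGF, 1 barrier, 1 mitosis and 2 hedgehog and Eda genes rose. With the 9 tissue libraries 14 barrier and 9 early differentiation genes fell, and 9 Wnt, 2 mitosis and 2 hedgehog and Eda genes rose. Of 3040 tests of 213 named genes under alternatives, 2850 kept the call, 95 lost it and 95 gained it. Where either fit called the gene, 0 reversed direction. Where neither did, direction was not compared. Defb6, Ifitm3, Rarg and Dcn, a dermal fibroblast gene, were lost in all 6 fits without 1 library. Among genes named above, Cst6 was lost in 2 of these 6 fits, Ereg and Fgfr2 in 1, and Tcf7 in 2 of the 5 that tested it. Genes at the filter's minimum count of 10 in epidermis, the shallower group, limit what can be told apart.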
